A study of Mus musculus with 13 samples.

Results

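The comparison described here set PD169316 against no inhibitor in D4 cells, a mouse embryonic stem (ES) cell line, and rests on 1 Affymetrix MG-U74A array for each condition. Both arrays were taken whole, 2 of the 13 arrays of the study, and their probe sets were kept where the signal was at least 100 on at least 1 of the 2. That left 6611 of the 10043 probe sets that hold a value, or 65.8%, and these represent 5226 genes. PD169316-treated D4 cells were plated at 10000 cells per ml without leukaemia inhibitory factor (LIF) but with 10 µM PD169316, and control D4 cells were plated without LIF and without inhibitor. All of these cells had been grown with 500 pM LIF before, the medium was changed daily, and the adherent cells were lysed 3 days after LIF was taken away, so that cells which had detached were not measured. D4 depends on feeder cells and had been passaged without them before the experiment. S1, a line that grows without feeders, was treated in the same way and gave 2 arrays with PD169316 and 2 control arrays on this chip, which serve here as the measure of spread. A further S1 array with 10 µM SB203580 was part of the test of a difference between the lines. It had a term of its own there and added nothing to the residual spread. It bore only on the signal filter and the intensity trend of that test. Whether the S1 replicates came from separate cultures is not stated in the labels, so the p-values below reflect the spread between these arrays only, and that spread may be technical.

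LIF acts through its receptor and the transcription factor STAT3 to keep mouse ES cells undifferentiated, and its withdrawal lets them leave that state, with some of the cells dying on the way. PD169316 belongs to the pyridinyl imidazoles, which bind in the ATP pocket of the p38 mitogen-activated protein kinases, and members of this class can also inhibit other kinases, among them type I receptors of the TGF-beta family. The p38 kinases phosphorylate further kinases and transcription factors in response to stress and cytokines. The question set by the study's title is how such an inhibitor alters the commitment to differentiate and the death of these cells.

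Values are MAS 5.0 signals, which are intensities that the authors scaled to a trimmed mean of 300 on every array. A log2 ratio is that of PD169316 over control in D4 cells unless stated otherwise, with signals under 32 set to 32, and a ratio with a signal under this floor rests on it. With 1 array each there is no test of the D4 cells alone, and "higher" or "lower" then gives the order of 2 signals. A gene is said to have risen only where it passed limma over the arrays of both lines at an adjusted p under 0.05, after Benjamini-Hochberg adjustment over all probe sets tested. Where PD169316 and control signals are said not to overlap, this describes those signals only. How many of all probe sets separate in this way was not counted. For genes that rose, the separation follows in part from their having passed the test. Signals of different genes are not set against each other. Since the arrays measured whole cultures, fewer cells of a type and less RNA per cell cannot be told apart.

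The D4 arrays matched the label of an ES cell line. All 6 of the ES cell markers with a probe set, among 7 chosen, had signals of at least 100 on both arrays, and their summed signal was 12326 with PD169316 and 11748 in control. For feeder-type fibroblasts the sums were 938 with PD169316 and 912 in control, with 3 of 8 markers at 100 or more with PD169316 and 4 in control. The sums for extraembryonic endoderm were 489 with PD169316 and 513 in control (1 of 7 markers at 100 or more with PD169316 and 3 in control). Those for endothelial and blood cells were 401 with PD169316 and 759 in control (2 of 6 markers on each array). The 3 trophoblast markers summed to 281 with PD169316 and 100.0 in control, with 2 of them at 100 or more with PD169316 and 0 in control. The part of other cell types in the differences below was not tested.

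**Figure D1:**
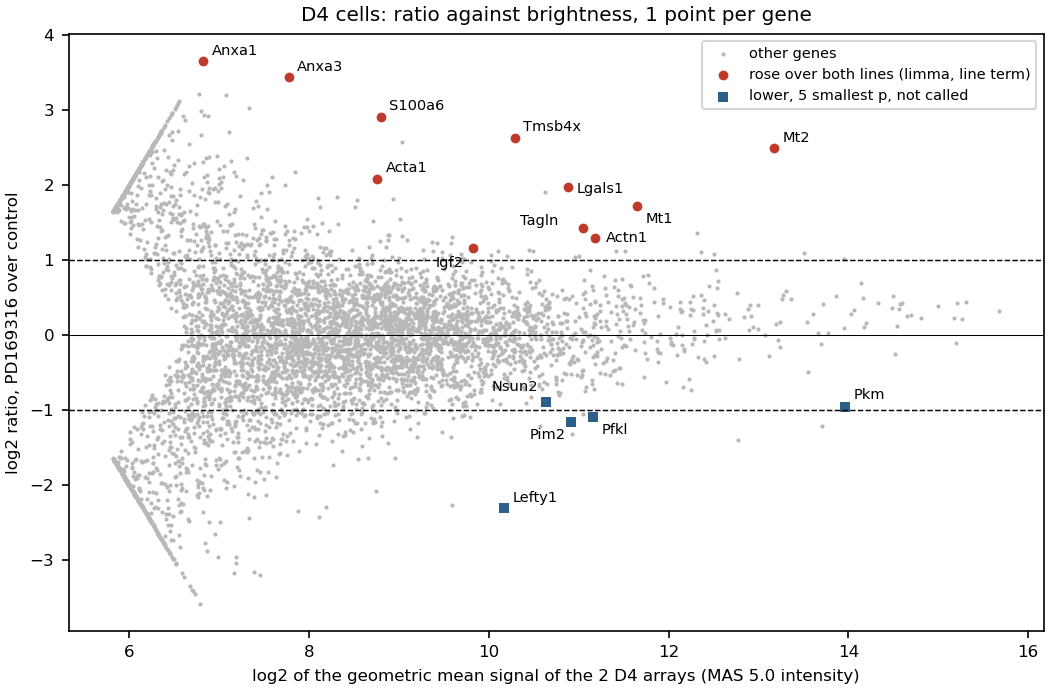
Each point is a gene, with the log2 of the geometric mean signal of both D4 arrays on the horizontal axis and the log2 ratio of PD169316 over control in D4 cells on the vertical axis. Dashed lines mark a log2 ratio of 1 and of -1, red circles the 11 named genes that rose over both lines and blue squares the 5 lower genes with the smallest p, which were not called. Bright genes lie close to 0, and Mt2 and Tmsb4x stand above the other genes of their brightness.

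At least 2-fold higher with PD169316 were 838 of 6611 probe sets (12.7%), and at least 2-fold lower were 998 (15.1%). Counted as genes with 1 probe set each, these were 636 of 5226 (12.2%) and 747 (14.3%). Of the lower probe sets, 367 had a PD169316 signal under the floor, and of the higher ones, 282 had a control signal under it. The median log2 ratio over genes was -0.03, with quartiles at -0.55 and 0.48. Among the 3858 genes with a signal of at least 100 on both arrays, 146 were at least 2-fold higher (3.78%) and 166 at least 2-fold lower (4.3%). The counts of list members below stand beside the shares of 12.2% and 14.3% over all genes. Counts among members with at least 100 on both arrays stand beside 3.78% and 4.3%. A gene that reached 100 on one array only was kept through the group where it is high, so for each such gene a difference is partly given by the choice, and counts over these genes are a description.

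These shares have to be read against the spread between replicates. Of the D4 probe sets, 27.8% lay at least 2-fold apart, against 26.2% between the replicate PD169316 arrays of S1 and 27.2% between its replicate control arrays. The overall share of D4 differences was thus about that between arrays of one condition. It was far lower for bright than for dim probe sets. Where the geometric mean signal was 1000 or more, 4.25% of the D4 probe sets were at least 2-fold apart, against 5.74% between the S1 PD169316 replicates and 10.9% between the S1 control replicates. Where it was under 100, the share in D4 was 85.3%. Both D4 arrays were hybridized on the same day, and the replicates of S1 on different days. The D4 arrays also came from the same chip lot, and the replicates of each S1 condition from different lots. Of the 824 bright D4 probe sets, 26 were at least 2-fold higher and 9 at least 2-fold lower.

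**Figure D2:**
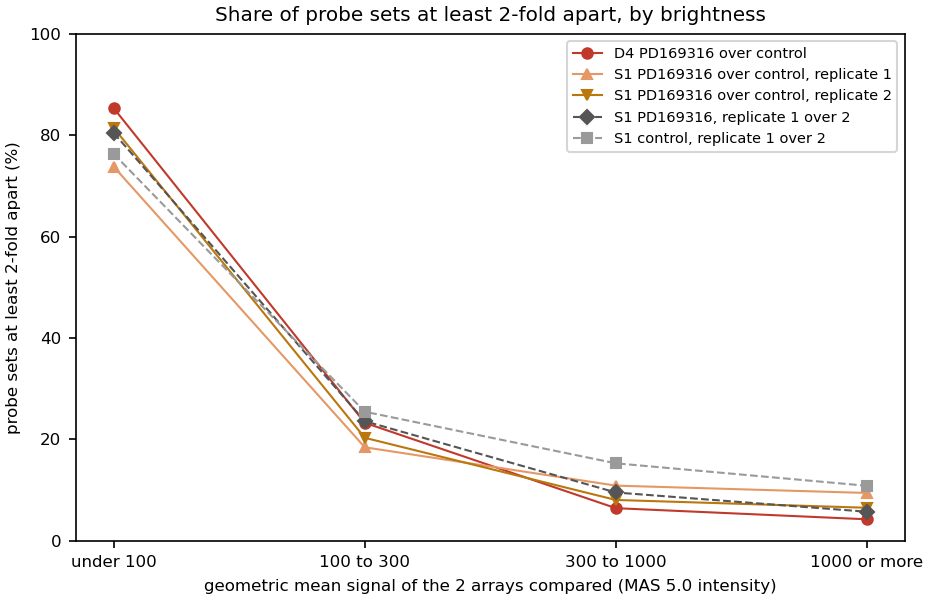
The share of probe sets that lay at least 2-fold apart (vertical axis, in percent) is plotted against the geometric mean signal of the 2 arrays compared (horizontal axis, in 4 classes). Solid lines compare PD169316 with control in D4 and in S1, and dashed lines compare replicate arrays of one S1 condition. In D4 the share was 85.3% for the dimmest class and 4.25% for the brightest, where both replicate pairs lay higher, at 5.74% and 10.9%.

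Measures of array quality were alike on the D4 arrays. The median signal was 124 with PD169316 and 134 in control, and the share of probe sets at or under the floor was 23.6% with PD169316 and 22.8% in control. For Actb, the 3' probe set over the 5' one, a ratio which grows as RNA degrades, gave 1.74 with PD169316 and 1.53 in control, and for Gapdh it was 1.21 with PD169316 and 1.01 in control. In S1 the Actb ratio was 2.14 and 1.94 with PD169316, against 3.31 and 1.67 in control. The S1 control array at 3.31 was that of replicate 1.

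Over both lines, 12 of 6266 probe sets rose with PD169316 (0.192%) and 0 fell, by limma on 6 arrays with a term for the line. Before adjustment, 411 probe sets had a p under 0.05. All 12 were higher in 3 of 3 pairs of arrays and at least 2-fold higher in D4. This follows in part from their having passed a test on these same arrays. Of the 12, 11 have 1 gene name. They encode metal-binding proteins (Mt1, Mt2), calcium-dependent and carbohydrate-binding proteins (S100a6, Anxa1, Anxa3, Lgals1), proteins of the actin cytoskeleton (Tmsb4x, Tagln, Acta1, Actn1) and a growth factor (Igf2). The lower genes with the smallest p were Lefty1, Pim2, Pfkl, Nsun2, which encodes an RNA methyltransferase, and Pkm, with adjusted p from 0.13 to 0.192. Nsun2 was at 1172 in D4 cells with PD169316 and 2173 in control. S1 supplies 4 of these 6 arrays, and single S1 arrays decide much of the count. Without S1 PD169316 replicate 1 it was 1, Mt2. Without S1 PD169316 replicate 2 it was 6, of which 5 were higher and 1 lower, and 5 were among the 12. Without S1 control replicate 1 it was 13, with 12 higher and 1 lower and 11 among the 12, and without S1 control replicate 2 it was 14, all higher, with 10 among the 12. The S1 replicate numbers coincide with the day of hybridization, and with that day as a block 19 probe sets passed. Of these, 14 were higher (0.223%), all 12 and also Wfdc2 and Myadm, and 5 were lower (0.0798%), namely Lefty1, Pfkl, Upp1, Ldha and Pkm.

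**Figure D3:**
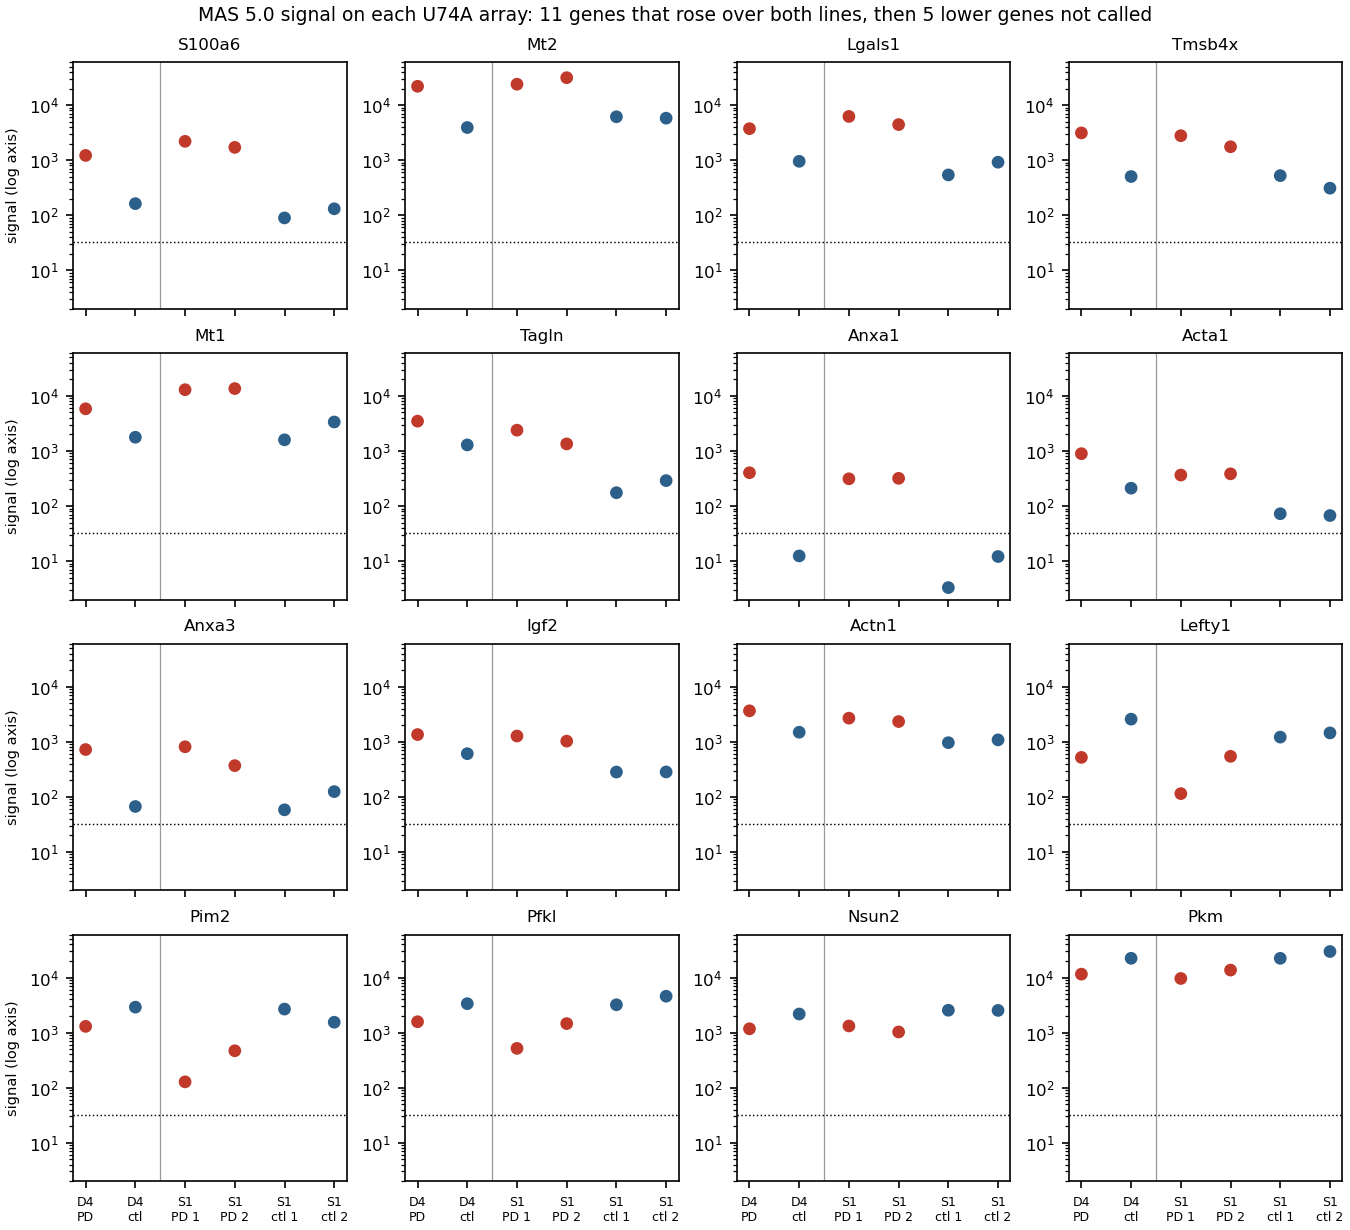
Each panel shows the MAS 5.0 signal of 1 gene (vertical log axis) on the 6 MG-U74A arrays, with the D4 arrays left of the grey line and the S1 arrays right of it, PD169316 in red and control in blue. The dotted line is the floor of 32. In the 11 genes that rose, every red point lies above every blue point, and in the last 5 panels, which were not called, every red point lies below every blue point.

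Metallothioneins are small cysteine-rich proteins that bind zinc, copper and cadmium and are induced by metals, glucocorticoids and oxidative stress. Mt2 had a signal of 21960.3 in D4 cells with PD169316, against 3915 in control D4 cells. Its S1 signals were 23949.7 and 31455 with PD169316, against 6138 and 5791 in control, so that the groups did not overlap. Mt2 rose by 2.30 ± 0.22 on the log2 scale over both lines (SE, limma, adjusted p = 0.00118). Mt1 had a signal of 5827 with PD169316 and of 1773 in control D4 cells, a ratio of 1.72. It was at 12964 and 13587 in S1 cells with PD169316, against 1593 and 3358 in control. Every PD169316 array thus exceeded every control array, and Mt1 rose by 2.25 ± 0.30 (limma, adjusted p = 0.00992). The other metallothionein genes of the array were measured with less certainty. Mt3, known from the brain, was at 731 with PD169316 and 529.8 in control (log2 ratio 0.46), and Mt4, known from stratified epithelia, at 198 with PD169316 and 41.1 in control (2.27). Of 4 metallothioneins 3 were thus at least 2-fold higher and 0 lower, with a median log2 ratio of 1.99 beside -0.03 over all genes. Enzymes of the antioxidant and glutathione list had a median of 0.05, with 0 of 15 at least 2-fold higher and 1 lower. That gene was Nqo1, a quinone reductase, at 63.3 with PD169316 and 154 in control. What induced the metallothioneins was not tested.

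S100a6, also called calcyclin, encodes a calcium-binding protein of the S100 family. Its signal was 1219 in D4 cells with PD169316 and 162 in control D4 cells, and in S1 it was 2196 and 1707 with PD169316 and 89.3 and 131 in control. The lowest PD169316 signal was therefore several times the highest control signal. S100a6 had the largest rise of the 12 over both lines, 3.75 ± 0.35 (limma, adjusted p = 0.00118). S100a10, which pairs with annexin A2, was at 1858 with PD169316 and 1279 in control, a log2 ratio of 0.54. S100a3 was dim, with 151 with PD169316 and 35.1 in control.

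Annexins bind acidic phospholipids in a calcium-dependent way and take part in membrane trafficking and repair. Anxa1 was at 402 in D4 cells with PD169316 and at 12.4, under the floor, in control D4 cells. In S1 it was at 312 and 318 with PD169316, against 3.3 and 12.1 in control, so all 3 control signals lay under the floor and the size of the rise depends on it. With the floor at 32 Anxa1 rose by 3.42 ± 0.52 (limma, adjusted p = 0.0294), and in D4 its ratio of 3.65 was the highest of all genes. Its probe set, like others of the Affymetrix types marked f, s, r, g or i, can also pick up related transcripts. Anxa3 was at 722 with PD169316 and 66.7 in control D4 cells. In S1 it was at 811 and 369 with PD169316 and 58.1 and 124 in control, again without overlap, and it rose by 2.94 ± 0.47 (limma, adjusted p = 0.0365). Anxa5, the protein used to stain dying cells, was at 443 with PD169316 and 206 in control (log2 ratio 1.10) and was not called over both lines (adjusted p = 0.571). Anxa2, Anxa6 and Anxa4 had D4 log2 ratios of 0.30, 0.62 and -0.45. Anxa7 alone of the annexins was at least 2-fold lower, with 12.6 with PD169316 and 174 in control.

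Lgals1 encodes galectin-1, a lectin that binds beta-galactosides outside and inside the cell. Its D4 signals were 3733 with PD169316 and 952 in control, and its S1 signals were 6224 and 4427 with PD169316 and 539 and 918 in control. The groups did not overlap, and Lgals1 rose by 2.59 ± 0.29 (limma, adjusted p = 0.00339). Lgals3 was at 121 with PD169316 and 61.6 in control. Of the 14 measured annexin, S100 and galectin genes, 6 were at least 2-fold higher and 1 lower, beside 12.2% and 14.3% of all genes, and their median log2 ratio was 0.80. Among the 9 that had at least 100 on both arrays the median was 0.54.

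Actin and its binding proteins form stress fibres, cortex and contractile filaments, and many of their genes are controlled by serum response factor (SRF), which binds the CArG box. Tmsb4x, the gene of an actin-sequestering thymosin, was at 3124 in D4 cells with PD169316 and 505 in control. Its S1 signals were 2780.2 and 1752 with PD169316, against 524 and 309.9 in control. No control array reached the lowest PD169316 array, and Tmsb4x rose by 2.51 ± 0.29 (limma, adjusted p = 0.00339). Tagln, or transgelin, a marker of smooth muscle that binds actin, was at 3476 with PD169316 and 1288 in control D4 cells. Its S1 signals of 2386 and 1343 with PD169316 lay above those of 175 and 289.5 in control. The control D4 array lay just under the lower S1 PD169316 array, and Tagln rose by 2.47 ± 0.37 (limma, adjusted p = 0.0294). In D4 its ratio was 1.43.

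Acta1, the skeletal muscle actin, was at 893 in D4 cells with PD169316 and 211 in control, and in S1 at 365 and 384 with PD169316 and 72.4 and 67.2 in control. It rose by 2.31 ± 0.37 without overlap between the groups (limma, adjusted p = 0.0365). Actn1, the actin cross-linker alpha-actinin-1, was at 3647 with PD169316 and 1489.5 in control D4 cells, and at 2685 and 2329 with PD169316 against 962 and 1082 in control in S1. Its ratio was nearly the same in each line, with 1.29 in D4, and it rose by 1.29 ± 0.22 (limma, adjusted p = 0.0474). The smooth muscle actin Acta2 had D4 signals of 355 with PD169316 and 54.2 in control. Other actin-binding genes at least 2-fold higher were Csrp1 (828 with PD169316 and 331 in control), Tmsb10 (17005 with PD169316 and 7939 in control) and Vcl, which encodes vinculin of focal adhesions (1207 with PD169316 and 598 in control). The myosin light chain Myl6 and the tropomyosin Tpm2 were dim, and Tpm2 was lower with PD169316 in S1. The cytoplasmic actins differed little in D4, with a log2 ratio of 0.10 for Actg1 and 0.43 for the 3' probe set of Actb. Other Actb probe sets lay between -0.51 and 0.74. In S1 the Actb probe sets disagreed. There the 3' one had a log2 ratio of 0.41, while one of type f was at 553 and 532 with PD169316 against 2287 and 2581 in control. Mylk, the myosin light chain kinase (17.5 with PD169316 and 126 in control), and Zyx, or zyxin (25.4 with PD169316 and 120.0 in control), were at least 2-fold lower, each from a PD169316 signal under the floor.

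In all, 10 of 26 measured genes of the actin list were at least 2-fold higher and 2 lower, beside 12.2% and 14.3% of all genes, with a median log2 ratio of 0.72. Among the 21 with at least 100 on both arrays, 7 were higher and 0 lower, beside 3.78% and 4.3% of all such genes. Myh9, the heavy chain of non-muscle myosin, is outside the list and was at 3068 with PD169316 and 817 in control D4 cells, a ratio of 1.91. A second Myh9 probe set had a ratio of 0.38.

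The promoter sequences of actin genes are shown because SRF sites are the best known feature that such genes share. In the 250 bases before the annotated start, a CArG box (a pair of C, then 6 bases that are A or T, then a pair of G; its reverse complement has the same form) was present in 482 of 32851 promoter windows (1.47%). It was present in 7 of the 23 measured actin list genes that have a window: Acta1, Myl6, Vcl, Cnn2, Myl9, Actc1 and Actg1. A gene counts here where any of its windows matches, so this share of genes and the share of windows differ in unit. The sequences below are from RefSeq on GRCm38.p6, are written 5′ to 3′ on the strand of the gene, and have the CArG box in capitals. The first 3 belong to genes that were at least 2-fold higher in D4 cells with PD169316 and the last 2 to actins that were not. Their positions are chr8:123894779-123894908 (minus strand) for Acta1, chr10:128493010-128493119 (minus strand) for Myl6, chr14:20929148-20929240 (plus strand) for Vcl, chr11:120348516-120348645 (minus strand) for Actg1 and chr2:114052876-114052982 (minus strand) for Actc1.
Acta1: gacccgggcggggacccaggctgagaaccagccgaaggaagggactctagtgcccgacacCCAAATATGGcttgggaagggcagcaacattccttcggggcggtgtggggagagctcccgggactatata
Myl6: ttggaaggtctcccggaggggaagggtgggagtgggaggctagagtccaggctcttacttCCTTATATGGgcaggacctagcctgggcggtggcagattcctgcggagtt
Vcl: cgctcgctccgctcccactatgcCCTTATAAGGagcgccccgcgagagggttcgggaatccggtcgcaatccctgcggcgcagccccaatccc
Actg1: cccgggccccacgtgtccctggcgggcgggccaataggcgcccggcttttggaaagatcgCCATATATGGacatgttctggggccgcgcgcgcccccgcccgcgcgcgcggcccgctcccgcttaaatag
Actc1: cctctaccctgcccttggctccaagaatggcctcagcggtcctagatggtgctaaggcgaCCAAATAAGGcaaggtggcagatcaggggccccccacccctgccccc
The box thus stood before genes with D4 log2 ratios from 0.10 (Actg1) and 0.22 (Actc1) to 2.08 (Acta1). Cnn2 (0.86) and Myl9 (0.71), whose sequences are not shown, were not at least 2-fold higher either. A box of this exact form was not found in the windows of Acta2, Actn1, Tpm2, Csrp1, Tmsb4x and Tmsb10. These genes were also at least 2-fold higher, and Tagln and Actb had no window. A match is a description of the sequence and does not show that SRF binds there.

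Igf2, an imprinted gene that encodes the growth factor IGF-II, was at 1351 in D4 cells with PD169316 and 607 in control. Its S1 signals were 1271 and 1026 with PD169316, against 282 and 283 in control. The groups did not overlap, and Igf2 rose by 1.73 ± 0.29 (limma, adjusted p = 0.0448). Of 19 imprinted genes, 4 were at least 2-fold higher and 2 lower, with a median of 0.17. Apart from Igf2, these calls came from genes with a signal under 100 on one of the arrays.

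Keratins 8, 18 and 19 are the intermediate filaments of simple epithelia, the first epithelia of the embryo. Krt8 was at 2070.0 with PD169316 and 948 in control D4 cells, and its partner Krt18 was at 1626 with PD169316 and 749 in control. Krt19 was at 748 with PD169316 and 296 in control, and plakoglobin, encoded by Jup, was at 339.8 with PD169316 and 134 in control. These 4 genes had log2 ratios of 1.13, 1.12, 1.34 and 1.34. The test over both lines did not call Krt8 (adjusted p = 0.346), Krt18 (0.559) or Krt19 (0.514). In S1, Krt8 was at 1193 and 1520.1 with PD169316, against 248 and 827 in control, a wide gap between the control arrays. The adhesion genes Cdh1, or E-cadherin, and Epcam had ratios of -0.77 and 0.59. Of 18 genes for keratins and epithelial adhesion 5 were at least 2-fold higher and 1 lower, beside 12.2% and 14.3% of all genes, with a median of 0.55.

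Basement membranes are sheets of type IV collagen, laminin, perlecan and nidogen, which primitive endoderm makes in quantity. Perlecan, encoded by Hspg2, was at 503 with PD169316 and 154 in control D4 cells, and the collagen chain gene Col4a2 was at 709 with PD169316 and 248 in control. Its partner Col4a1 was at 858 with PD169316 and 469.6 in control (log2 ratio 0.87), and Sparc, a collagen-binding glycoprotein, at 1052 with PD169316 and 486 in control (1.11). The measured laminin chains were split in D4. Lama1 was at 162 with PD169316 and 388 in control, and Lamb1 was at 105 with PD169316 and 241 in control. The other two were higher, with 110.2 with PD169316 and 37.2 in control for Lamc1 and a log2 ratio of 0.31 for Lama5. Over both lines the adjusted p was 0.192 for Sparc and 0.252 for Col4a2 (limma), so neither was called. Of 19 genes of this list 6 were at least 2-fold higher and 3 lower, beside 12.2% and 14.3% of all genes, so the lower ones were near the background share. The median was 0.31.

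Regulators and products of the extraembryonic endoderm were mostly dim. Lrp2, or megalin, an endocytic receptor of the visceral endoderm, was at 437 with PD169316 and 161 in control D4 cells, and the transcription factor Sox17 was at 146 with PD169316 and 28.4 in control. In S1 Sox17 was at 20.0 and 31.5 with PD169316, against 18.9 and 172 in control, and did not show the D4 direction in both pairs. Gata4, which drives primitive endoderm, was at 60.3 with PD169316 and 113 in control D4 cells. Gata6 stayed below 100 on both D4 arrays, with 36.9 in PD169316 and 14.3 in control. The serum protein gene Afp, a product of visceral endoderm, was at 51.6 with PD169316 and 154 in control. Of 11 measured genes of 27 in the list, 5 were at least 2-fold higher and 1 lower, and only 3 had at least 100 on both arrays.

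The pluripotency genes showed no common direction in D4. Pou5f1, which encodes OCT4, was at 4824 with PD169316 and 6011 in control (log2 ratio -0.32), and Sox2 was at 1863 with PD169316 and 1435 in control (0.38). Utf1, a chromatin factor of undifferentiated cells, was at 3858 with PD169316 and 2453 in control, and Fgf4, a growth factor controlled by OCT4 and SOX2, was at 1181 with PD169316 and 709 in control. For Fgf4 the S1 order was the opposite, with 1078 and 1129 with PD169316, against 2729.5 and 1559 in control. Zfp42, also called REX1, was at 351 with PD169316 and 550.4 in control, and Klf5 at 1103 with PD169316 and 641 in control. At least 2-fold lower were Alpl, the alkaline phosphatase used to stain ES colonies (253 with PD169316 and 655 in control), Tdgf1 and Fbxo15. These were 3 of 18 genes, 0 were at least 2-fold higher, and the median was 0.01. Nanog had no named probe set with a value, and Fgf5, a marker of the primed epiblast, stayed below 100 on both D4 arrays (7.0 with PD169316 and 21.7 in control).

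Among LIF and STAT3 targets, Pim2, which encodes a survival kinase, was at 1295 in D4 cells with PD169316 and 2894 in control. In S1 it was at 127 and 467 with PD169316, against 2669.8 and 1541 in control, lower in each pair and without overlap. Its log2 difference over both lines was -2.42 and was not called (limma, adjusted p = 0.181). Pim1 was not lower in D4, at 902 with PD169316 and 755 in control, although both S1 PD169316 arrays (625 and 702) lay below both S1 control arrays (1585 and 1323). A second Pim1 probe set had a D4 ratio of -1.49. Mycn was at 478 with PD169316 and 933 in control D4 cells (-0.97). Myc was at 138 with PD169316 and, under the floor, at 24.1 in control. Of 19 genes 1 was at least 2-fold higher and 3 were lower (median -0.16).

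Nodal is a TGF-beta family ligand that ES cells make; it signals through activin receptors and the co-receptor TDGF1, and induces its own inhibitors, the Lefty proteins. Nodal was at 363 in D4 cells with PD169316, against 862 in control, and in S1 at 345 and 381 with PD169316, against 651 and 657 in control. Every PD169316 signal lay below every control signal, yet the log2 difference of -0.98 ± 0.28 was not called over all probe sets (limma, adjusted p = 0.382). The inhibitor Lefty1 was at 519.8 with PD169316 and 2573 in control D4 cells, and in S1 at 114 and 544 with PD169316 and 1215 and 1449 in control. The groups again did not overlap. Its log2 difference was -2.38 ± 0.46, with an adjusted p of 0.13, and of 0.0314 with the hybridization day as a block (limma). Tdgf1 was at 249 with PD169316 and 590.4 in control D4 cells, and at 15.9 and 209 with PD169316 against 343 and 508 in control in S1. It was lower in 3 of 3 pairs and not called (adjusted p = 0.463).

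Of the receptors in this list, the activin receptor gene Acvr1b was at 28.9 with PD169316 and 205 in control D4 cells, and the TGF-beta receptor gene Tgfbr2 was at 153 with PD169316 and 38.2 in control. In S1 both were higher with PD169316 in each pair, so Acvr1b did not keep its D4 direction there. The bone morphogenetic protein genes Bmp4 (117 with PD169316 and 263 in control) and Bmp7 (23.4 with PD169316 and 137 in control) were lower. Id proteins block basic helix-loop-helix factors and are textbook BMP targets. Id2 was at 1281 in D4 cells with PD169316 and 215 in control, and in S1 at 1849.7 and 1492 with PD169316, against 504 and 821 in control. The groups did not overlap, and the difference of 1.77 ± 0.32 missed the threshold (limma, adjusted p = 0.0883). Id1 was at 1175 with PD169316 and 501 in control D4 cells (adjusted p = 0.27), and Id3 at 705 with PD169316 and 547 in control. Of 27 genes of the Nodal, TGF-beta and BMP list 6 were at least 2-fold higher and 8 lower, with a median of 0.04.

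Wnt ligands act through Frizzled receptors and beta-catenin on factors of the TCF and LEF family. The Wnt genes past 2-fold had all been kept through one array only, so no common direction is read from them. Of the ligands, Wnt8a was at 24.3 with PD169316 and 224 in control D4 cells. Wnt3 was at 58.4 with PD169316 and 245 in control. Lef1 was at 51.5 with PD169316 and 229 in control D4 cells, and in S1 at 70.7 and 329 with PD169316 against 933 and 337 in control. The S1 pairs differed widely from each other, and Lef1 was not called (adjusted p = 0.424). The receptor gene Fzd4 (359.5 with PD169316 and 70.0 in control) and Sfrp1, a secreted binder of Wnt proteins (209.8 with PD169316 and 30.8 in control), were higher. In all, 5 of 23 genes were at least 2-fold higher and 6 lower, beside 12.2% and 14.3% of all genes. Among the 11 genes of the list with at least 100 on both arrays 0 were higher or lower, beside 3.78% and 4.3% of all such genes.

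Genes of the primitive streak and mesoderm were mostly dim, and only 2 of the 12 measured ones had at least 100 on both arrays, with a median log2 ratio of -0.94. The other members had been kept through one array only, for the lower ones the control array, and the median of -1.88 over all 12 describes that choice too. Eomes, a T-box factor of the streak and trophoblast, was at 13.4 in D4 cells with PD169316 and 382 in control. This was the lowest ratio of all genes (-3.58, on the floor), and a second Eomes probe set had a ratio of -1.87. Fgf8, a growth factor needed for cells to leave the streak, was at 132 with PD169316 and 645 in control (-2.29). The mesoderm factors Mesp1 (log2 ratio -1.97) and Mesp2 (35.5 with PD169316 and 252 in control) were lower too. Tbx6 (154 with PD169316 and 28.8 in control) and Hand1 (147 with PD169316 and 32.5 in control) were higher. Of 12 measured genes 2 were at least 2-fold higher and 8 lower, and Fgf8 was the 1 among these with at least 100 on both arrays. The median of the list in S1 was 0.10. Eomes was at 24.2 and 32.9 in S1 cells with PD169316 and at 96.8 and 18.4 in control, and Fgf8 lay between 7.1 and 38.8 on all 4 S1 arrays.

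**Figure D4:**
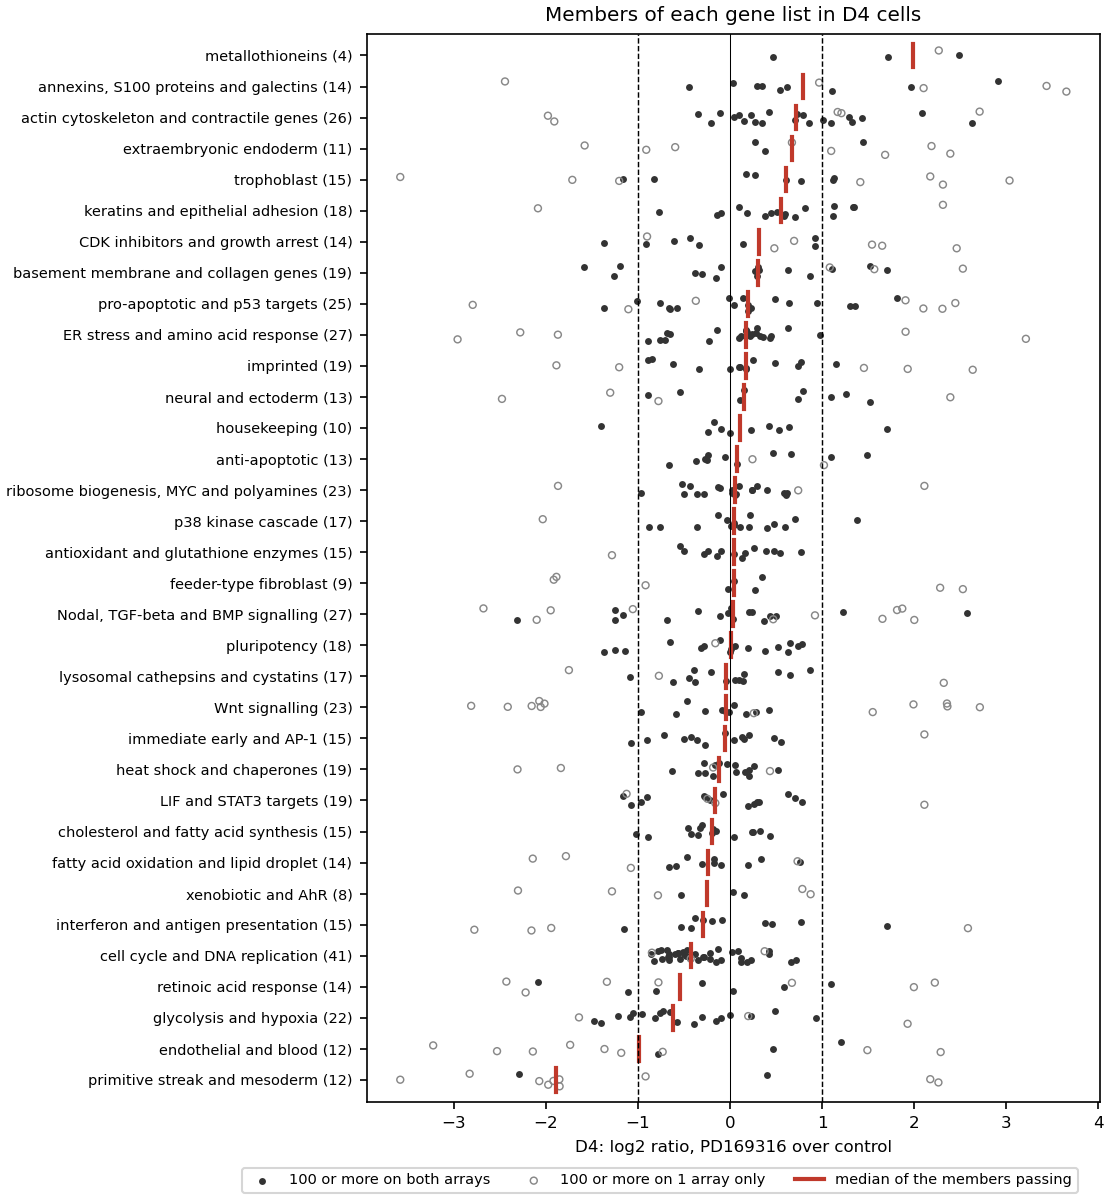
Each row is one of the 34 gene lists, with the number of measured members in brackets, and each point is a member at its D4 log2 ratio of PD169316 over control on the horizontal axis. Filled points had a signal of at least 100 on both arrays and open points on only one, dashed lines mark 2-fold, and red bars are medians. Most points past 2-fold are open. Filled ones past 2-fold number 2 in the metallothioneins (median 1.99) and 7 in the actin list (0.72). Other lists have filled ones too, such as glycolysis and hypoxia with 5, all lower. The primitive streak list (-1.88) has nearly all of its points open, 2 of 12 being filled.

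Neural genes went both ways. Nes, the gene of the neural progenitor filament nestin, was at 847 with PD169316 and 354 in control D4 cells, and Crabp2, which carries retinoic acid, was at 329 with PD169316 and 154 in control. Zic2 was lower, at 43.1 with PD169316 and 239.6 in control. Of 13 genes 4 were at least 2-fold higher and 2 lower. The trophoblast list had 6 of 15 higher and 4 lower, beside 12.2% and 14.3% of all genes, and its highest ratio was that of Fgfr2 (262 with PD169316 and 27.2 in control), a receptor of FGF4. In S1 Fgfr2 was at 290.3 and 266 with PD169316 against 221 and 209 in control. Endothelial and blood genes had a median of -0.98, with 3 of 12 higher and 6 lower. Among them were Klf1, an erythroid factor (log2 ratio -3.22), and Pecam1, which endothelial and ES cells carry on their surface (36.0 with PD169316 and 208 in control). Over the 3 genes of this list with at least 100 on both arrays the median was 0.47. The feeder-type fibroblast list had 2 of 9 higher and 2 lower, and a median of 0.05.

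Since the study asked about cell death, pro-apoptotic genes and p53 targets were described apart. The Gadd45 genes encode small stress proteins that activate the kinases upstream of p38 and JNK. Gadd45a was at 918 in D4 cells with PD169316 and 261 in control, Gadd45b at 399 with PD169316 and 93.1 in control, and Gadd45g at 228 with PD169316 and 60.9 in control. In S1 Gadd45b was at 221 and 328 with PD169316, against 74.9 and 111 in control, the same order without overlap. The p53 targets Perp (306 with PD169316 and 119.6 in control) and Sfn, or 14-3-3 sigma (1208 with PD169316 and 489.6 in control), were also higher. Over both lines the adjusted p was 0.192 for Sfn, 0.27 for Perp and 0.28 for Gadd45b (limma), so none was called. Cdkn1a, or p21, the p53 target that stops the cell cycle, was the other way round in D4, with 477 with PD169316 and 1226 in control, but a second probe set of Cdkn1a had a ratio of 0.16. Among the effectors, Bik (158 with PD169316 and 28.3 in control) and Casp6 (184 with PD169316 and 33.7 in control) were higher, and Casp2 (136 with PD169316 and 273 in control) was lower. The D4 signal of one Casp9 probe set was lower (-2.79) and that of another higher (2.26), so caspase-9 has no single direction. In all, 7 of 25 genes were at least 2-fold higher and 4 lower, beside 12.2% and 14.3% of all genes, so the lower ones were near the background share. The median was 0.19.

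Of 13 anti-apoptotic genes 3 were at least 2-fold higher and 0 lower. Clu, the gene of the chaperone clusterin, was at 474 with PD169316 and 169 in control D4 cells, and the survival kinase gene Akt1 was at 307 with PD169316 and 143 in control. Bcl2 was dim, at 106 with PD169316 and 89.4 in control, and Mcl1 was at 634 with PD169316 and 660.3 in control, near equality.

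Genes of the p38 cascade itself differed little. Mapk14, which encodes p38 alpha, the main target of this class of compounds, was at 738 with PD169316 and 634 in control D4 cells (log2 ratio 0.22). Mapkapk2, the kinase that p38 alpha activates, was at 385 with PD169316 and 382 in control (0.01). Dusp16, a phosphatase that acts on JNK and p38, was at 349 with PD169316 and 134 in control, and in S1 at 393 and 304 with PD169316 against 186 and 173 in control, higher in each pair (adjusted p = 0.52). Of 17 genes 1 was at least 2-fold higher and 1 lower. Immediate early genes had 1 of 15 higher and 1 lower.

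In the stress lists single genes stood out. Ddit3, or CHOP, the death-promoting factor of the unfolded protein response, was at 334 with PD169316 and 36.0 in control D4 cells (3.21), but in S1 it was at 517 and 699.6 with PD169316 against 191 and 825 in control, with overlap. Atf4, which acts upstream of it, was at 4557 with PD169316 and 2941 in control, and the chaperone gene Hspa5 at 2375 with PD169316 and 1942 in control. Of 27 genes of the endoplasmic reticulum stress and amino acid list 2 were at least 2-fold higher and 3 lower, and of 19 heat shock and chaperone genes 0 were higher and 2 lower.

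Several glycolytic enzymes had lower signals with PD169316 in D4, far above the floor. Pgk1, phosphoglycerate kinase, was at 4309 with PD169316 and 11409.9 in control D4 cells (-1.40), and Ldha, a lactate dehydrogenase subunit, was at 8779 with PD169316 and 20357 in control (-1.21). Pfkl, the liver-type phosphofructokinase, was at 1573 with PD169316 and 3349.8 in control, and pyruvate kinase, encoded by Pkm, at 11500.3 with PD169316 and 22329.8 in control. For Ldha, Pfkl and Pkm the S1 arrays with PD169316 lay below both S1 control arrays. Pkm was at 9600.0 and 13635 in S1 cells with PD169316, against 22295 and 29659 in control. Pgk1 differed between the S1 pairs in direction, with 3703 and 10018 with PD169316 against 5229 and 8036 in control. None was called over both lines, with an adjusted p of 0.192 for Pfkl and Pkm and 0.298 for Ldha. With the hybridization day as a block, Pfkl (adjusted p = 0.0314), Ldha (0.0430) and Pkm (0.0472) passed (limma). Slc2a1, the glucose transporter GLUT1, had a D4 ratio of -0.65 and Tpi1 one of -0.73, while Hk1, or hexokinase 1, was at 0.49. Of 22 genes of glycolysis and hypoxia 6 were at least 2-fold lower and 1 higher, beside 14.3% and 12.2% of all genes, and the median was -0.62. In the 19 genes with at least 100 on both arrays, 5 were lower and 0 higher, beside 4.3% and 3.78% of all such genes.

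Cell cycle and replication genes mostly had small negative ratios. Of 41 measured genes 30 had a negative log2 ratio in D4, beside 51.6% of all genes, while 0 were at least 2-fold higher or lower, and the median was -0.43. Mcm2, a subunit of the replicative helicase, was at 1371 with PD169316 and 2163 in control, and Pcna, the sliding clamp, at 2172 with PD169316 and 2822 in control. Cdk1 was at 2507 with PD169316 and 2143 in control, in the other direction.

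The remaining lists are given by their counts. Of 15 genes for cholesterol and fatty acid synthesis 0 were at least 2-fold higher and 1 lower, and of 14 for fatty acid oxidation and lipid droplets 0 were higher and 3 lower. Ribosome biogenesis, MYC and polyamine genes had 1 of 23 higher and 1 lower, CDK inhibitors 3 of 14 higher and 1 lower (0 and 1 of the 8 with at least 100 on both arrays), and lysosomal genes 1 of 17 higher and 2 lower. The retinoic acid response had 3 of 14 higher and 5 lower. Its member Stra8 was at 149.5 with PD169316 and 6.2 in control D4 cells, and in S1 at 1051 and 134 with PD169316 against 26.8 and 16.1 in control. All 3 Stra8 control signals lay under the floor, and it was not called (adjusted p = 0.27). Interferon and antigen presentation genes had 2 of 15 higher and 4 lower, xenobiotic genes 0 of 8 higher and 2 lower, and housekeeping genes 1 of 10 higher and 1 lower. The housekeeping gene at least 2-fold higher was B2m, the light chain of class I antigens (657 with PD169316 and 202 in control), and the lower one was Pgk1.

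Beyond the genes above, the 12 largest D4 ratios each way came mostly from genes near the floor on one array. Higher with PD169316 were Laptm5 (408 with PD169316 and 44.6 in control), Miip, Bet1l, Cfp, H2-T18, Ikzf4, Asap1 and Gsta2, with log2 ratios from 2.96 to 3.19. Lower were Sez6l (6.5 with PD169316 and 351 in control), Car12, Sgpp1, Homer3, Syngr2, Il3, Tbl1x, Gp9, Alox15 and Il2rb, with ratios from -3.46 to -3.04. A second Tbl1x probe set had a ratio of -0.02, so Tbl1x was not lower by both. The largest differences with at least 100 on both arrays have more signal behind them. Among the lower ones was Upp1, uridine phosphorylase, at 351 with PD169316 and 1687 in control D4 cells (-2.26). In S1 Upp1 was at 315 and 1016 with PD169316 against 1057 and 2194 in control, so both PD169316 signals lay below both control signals. Marveld1, Traf2, Hoxa4, Slc25a10, Tyms-ps, Rad1, Hcn2, Cachd1 and Limk1 had ratios from -2.42 to -1.63. Another Limk1 probe set was at -0.48. Among the higher ones, Krtap5-1, Rtn1, Kmt2a and Rbms1 had ratios from 1.83 to 2.17. Other probe sets of Kmt2a and Rbms1 had smaller ratios, 0.61 and 0.66.

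The D4 and S1 comparisons share no array, and their log2 ratios were set side by side over genes and probe sets, which are not independent replicates. Over all 6611 probe sets Pearson's r was 0.13. Over the 3791 with at least 100 on all 6 arrays it was 0.29, and over the 828 with a geometric mean of at least 1000 it was 0.55. Of 146 probe sets at least 2-fold higher in D4 among the 3791, 35 were also at least 2-fold higher in S1, which is 24.0% of the D4 and 40.7% of the S1 ones. Of 150 lower in D4, 10 were also lower in S1, or 6.67% of the D4 and 19.6% of the S1 ones. In opposite directions past 2-fold were 1 probe set higher and 2 lower in D4. Over all 6611 probe sets, 140 of 838 higher in D4 were also higher in S1, which is 16.7% of the D4 and 32.3% of the S1 ones. Of 998 lower in D4, 66 were also lower in S1, or 6.61% of the D4 and 27.7% of the S1 ones. There, 33 probe sets higher in D4 were at least 2-fold lower in S1, and 93 lower in D4 were at least 2-fold higher in S1. In S1, 433 of these 6611 probe sets were at least 2-fold higher and 238 at least 2-fold lower. The 93 and the 66 thus come from S1 totals of unlike size and are not compared. Among the 3791, S1 had 86 higher and 51 lower.

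**Figure D5:**
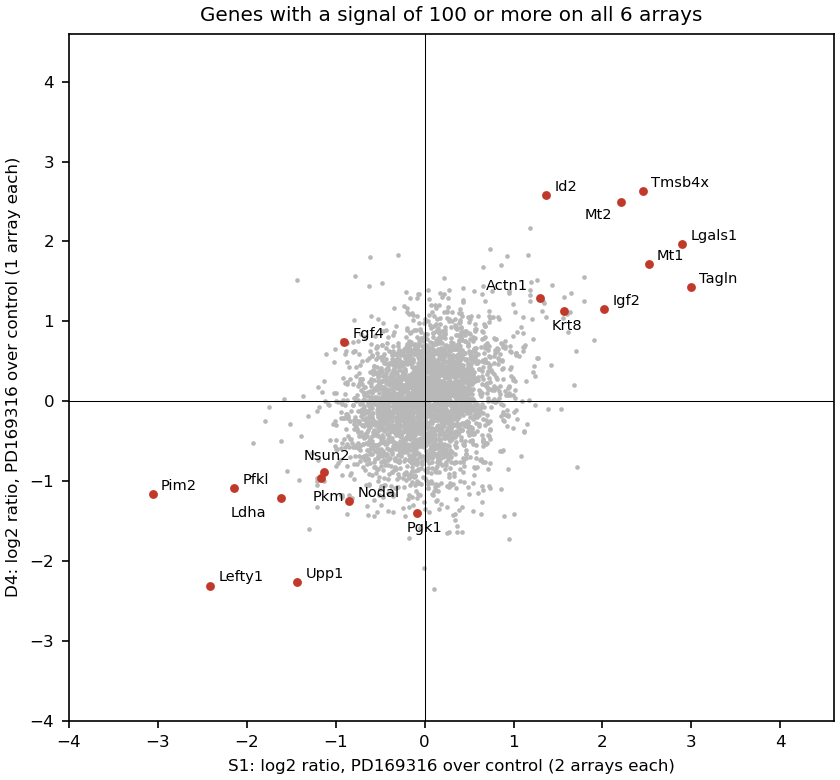
Each point is a gene with a signal of at least 100 on all 6 arrays, with the S1 log2 ratio of PD169316 over control (2 arrays each) on the horizontal axis and the D4 log2 ratio (1 array each) on the vertical axis. Named points are genes described in the text. Tmsb4x, Mt2, Mt1, Lgals1 and Tagln lie at the upper right and Lefty1 and Pim2 at the lower left, while Pgk1 and Fgf4 leave the diagonal.

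Whether PD169316 acted differently in D4 and S1 was tested directly as the difference of the 2 effects on 7 arrays. Limma called 0 of 6330 probe sets, with 153 at an unadjusted p under 0.05. Before adjustment over all probe sets, the median 95% confidence interval of the difference reached 2.08 either way on the log2 scale. Differences smaller than this were mostly not detectable with these arrays. Far larger ones, such as those of Smoc1 and Tbl1x below, did not pass either. The 0 calls thus do not show that the lines responded alike. Among probe sets with 1 gene symbol, the smallest p belonged to Smoc1, which encodes a calcium-binding matrix protein. It was at 168 with PD169316 and 40.5 in control D4 cells, and at 41.2 and 55.0 with PD169316 against 227 and 276 in control in S1, a difference of 4.45 ± 1.10 (SE, limma, adjusted p = 0.9997). Pou3f1, a POU factor of the epiblast and neural lineage, was at 333 with PD169316 and 116 in control in D4 and at 109 and 105 with PD169316 against 277 and 301 in control in S1 (difference 2.96). Tbl1x (-5.14) and Btd (-3.58) lay between Smoc1 and Pou3f1 in order of p. An Actb probe set (1.96) came after Pou3f1, and none passed. For Smoc1, Pou3f1, Tbl1x and Btd the order of PD169316 and control was opposite in the 2 lines on these arrays. These genes were chosen for a small p of this same difference, so the opposite order is no separate support for it. For Tbl1x a second probe set had a D4 log2 ratio of -0.02.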

How the data were processed

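RNA of mouse ES cells was measured on Affymetrix MG-U74A arrays, and 7 arrays were used. Per the labels, 5 µg of total RNA went into each biotin cRNA synthesis, and each array received 10 µg of the product. The deposited values are intensities (signals) from Microarray Suite 5.0, which the authors brought to a target of 300 by global scaling, per the labels. The table of the other chip version was scaled separately and was not used here.

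A floor of 32 was applied before taking log2. For D4 alone, probe sets with at least 100 on at least 1 array were kept and counted past 2-fold. The difference between the lines (7 arrays) and the effect over both lines with a line term (6 arrays) went through limma 3.58.1 under R 4.3.3, with lmFit and trended eBayes, two-sided, on probe sets with at least 100 on at least 2 arrays, with Benjamini-Hochberg adjustment at 0.05. The fits take the spread of the lone D4 arrays to equal that of the others, and the code was tested on simulated data. The number of arrays limits the precision.

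Of 12654 probe sets, 2611 had a value of 0 on every array and were left out. The platform annotation gave 1 gene symbol to 10298, several to 363 and none to 1993, and no symbol was updated. Where a gene had several, the probe set brightest on the D4 arrays stood for it. Of 86 genes past 2-fold with another measured probe set, 38 had one of the opposite sign. Named were the 12 largest ratios each way, the 12 largest with at least 100 on both arrays, list members past 2-fold, genes called over both lines or with the smallest p, and genes of general interest. A few others are given as context and were chosen after their values were seen. The members and the 34 gene lists were chosen with earlier results of these data known. Promoter windows came from RefSeq.

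Same-numbered S1 arrays were hybridized on the same day, by the dates in the scan records, and their deviations from the group means correlated at 0.28, so the number served as a block in an alternative. Day and line cannot be told apart. For S1 replicate 1, the PD169316 and control arrays came from different chip lots, so lot and treatment cannot be told apart there. Alternatives were quantile normalization, centring, floors of 16 and 64, other signal filters, no intensity trend, the block, and leaving out single arrays.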

Additional observations from a re-analysis of the deposited data

How the results depend on the processing

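Counts of probe sets at least 2-fold higher and lower in D4 followed the signal filter. They were 318 and 388 with at least 200 on 1 array, and 188 and 209 with at least 100 on both, against 838 and 998. With at least 100 on both arrays the median of the endothelial and blood list turned from -0.98 to 0.47 and that of the CDK inhibitors from 0.31 to -0.38, with 0 in place of 3 genes at least 2-fold higher. The medians of the anti-apoptotic (0.08 to -0.06), lysosomal (-0.04 to 0.01) and xenobiotic lists (-0.25 to 0.03) changed sign too. Without a filter that of the retinoic acid list was 0 (-0.54 otherwise). The difference between lines gave 0 calls except without a signal filter (394, of which 307 had every S1 PD169316 and control signal under the floor). The count of 12 over both lines was 7 with a floor of 64, 0 without a signal filter (613 at an unadjusted p under 0.05), 0 without the intensity trend (399), and 19 with the replicate block, which equals the hybridization day block. Leaving out single S1 arrays gave 1 to 14. The cause of these shifts was not tested, apart from the filter and the block, which change the probe sets or the terms fitted. Ratios that rest on the floor move with it by construction. No D4 count has a replicate behind it.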

Other observations

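Some bright genes outside the lists were also past 2-fold in D4 cells, and were picked after their values were seen. Bex1, which encodes a small brain-expressed X-linked protein, was at 8178 with PD169316 and 3186 in control. Basp1, which encodes a membrane-bound protein of growing neurites, was at 8449 with PD169316 and 4014 in control. Itgb1, the beta-1 chain of integrins, was at 2966 with PD169316 and 1431 in control. Chchd10 and Ndufab1, which encode mitochondrial proteins, were at 7708 and 4323 with PD169316 and at 3572 and 1997 in control. Lower with PD169316 was the proteasome subunit gene Psmd7, at 1233 with PD169316 and 3075 in control, and its S1 log2 ratio of -1.21 had the same sign. Basp1 had an S1 log2 ratio of -0.13, and those of Chchd10 and Ndufab1 were 0.39 and 0.08.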
